A study of Mus musculus with 8 samples.

Results

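The genes of glycolysis and of the pentose phosphate pathway were examined for acetylation of histone H3 at lysine 9 (H3K9ac), a mark of active promoters, in BM cells of *NUP98-HOXD13-tg* mice that carried 1 of 3 forms of *GFI1*, named *GFI1-36S*, *-36N* and *-KD*. The set was a list of 34 named genes, all of which matched 1 protein-coding gene each among the 21938 of the annotation. They comprise 2 glucose transporters, 12 genes of the upper steps of glycolysis, 8 of its lower steps, 5 that handle pyruvate and lactate, and 7 of the pentose phosphate pathway. For each gene the strongest H3K9ac peak within 1 kb of any TSS was taken in each peak list and ranked among the promoter peaks of that list.

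Glycolysis splits glucose into pyruvate and yields ATP and NADH, and lactate dehydrogenase and the monocarboxylate transporters then convert pyruvate to lactate and carry it across the membrane. The pentose phosphate pathway branches off at glucose-6-phosphate. It supplies NADPH for biosynthesis and for defence against oxidants, and ribose phosphate for nucleotides, so that both routes are active in dividing blood progenitors and in neutrophils. Many of these enzymes exist as isozymes encoded by separate genes, of which blood cells use some and brain, liver or muscle use others.

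All mice were C57BL/6 and carried the *NUP98-HOXD13* transgene, a fusion gene that causes a disease resembling human MDS with progression to AML, so that no library came from mice without it. They differed in the form of GFI1, a transcriptional repressor that recruits histone deacetylases. *GFI1-36S* is the common form, *GFI1-36N* has asparagine in place of serine, and *GFI1-KD* mice have reduced expression. Vehicle was DMSO, and curcumin, a natural inhibitor of histone acetyltransferases, was injected intraperitoneally every week at 20 mg/kg. The material was BM cells by the sample titles and the methods of the paper, whereas the heading of a figure there names c-kit+ cells. Neither the age of the mice nor the number of mice per library is given in the sources used here, and each of the 6 groups had 1 library. Differences between libraries are therefore described without p-values. Vehicle and curcumin are swapped between the labels and the list names of the *GFI1-36S* pair. The labels were followed, and every *GFI1-36S* change below has the opposite sign if the list names are right. For *GFI1-36N*, the vehicle list is named as heterozygous and the curcumin list as homozygous, so that zygosity and treatment cannot be told apart in this pair.

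The lists held between 20354 and 49213 peaks, and a promoter peak was present at 44.3% to 53.8% of all protein-coding genes. The median promoter peak held between 72 and 159 fragments at its summit. Promoter peaks at marker genes set the *GFI1-36S* library labelled curcumin apart from the other 5. It had a promoter peak at 12 of 12 T-cell markers, against 3 to 7 elsewhere, and the ranks of this list summed to 510, against 13.4 to 42.5. At the 15 neutrophil markers, *Elane* and *Mpo* among them, it had no peak, against 7 to 14 elsewhere. It had a peak at 1 of 12 erythroid and 1 of 10 progenitor markers, and it was the only library with peaks on chromosome Y, 3 in number, and without a promoter peak at *Xist*. In *GFI1-KD* mice the neutrophil markers with a peak numbered 14 with vehicle and 7 with curcumin, and the erythroid markers 12 and 5. In *GFI1-36N* mice, 11 neutrophil markers had a peak with either treatment, and 10 and 7 erythroid markers. B-cell markers were nearly without peaks in these BM cells, with 0 to 3 of 8 in each library.

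To show what these promoters look like, the sequences of 6 of them are given from RefSeq (GRCm38.p6, the assembly of mm10), from 250 bp before to 50 bp after the annotated start, 5′ to 3′. They were chosen after their values were seen. *Slc2a1* moved up and *Slc16a3* down in all 3 genotypes by fold enrichment with the treatments as labelled (by height over the genome background not *Slc16a3* in *GFI1-KD* mice), *Tpi1* had the largest change in *GFI1-36N* mice, *Ldha* and *Slc16a1* carry 5 and 4 separate core sites, and *Pfkl* had no promoter peak. Capitals mark the letters ACGTG or GCGTG on either strand, the core of the hypoxia response element to which HIF1 binds. Where the palindrome CACGTG is in capitals, it holds ACGTG on both strands.
*Slc2a1*, chr4:119108495-119108794, plus strand: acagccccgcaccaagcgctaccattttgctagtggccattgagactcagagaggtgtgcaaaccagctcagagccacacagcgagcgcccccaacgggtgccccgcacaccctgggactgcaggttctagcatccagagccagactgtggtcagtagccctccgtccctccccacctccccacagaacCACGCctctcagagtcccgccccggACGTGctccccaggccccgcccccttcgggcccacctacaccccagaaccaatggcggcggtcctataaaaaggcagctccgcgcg
*Tpi1*, chr6:124814109-124814408, minus strand: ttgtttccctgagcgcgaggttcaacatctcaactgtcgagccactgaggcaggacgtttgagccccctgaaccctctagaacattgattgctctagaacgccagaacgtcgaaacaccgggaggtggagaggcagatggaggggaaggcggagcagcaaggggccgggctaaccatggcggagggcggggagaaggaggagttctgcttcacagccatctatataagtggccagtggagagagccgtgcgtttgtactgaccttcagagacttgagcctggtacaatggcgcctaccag
*Ldha*, chr7:46845554-46845853, plus strand: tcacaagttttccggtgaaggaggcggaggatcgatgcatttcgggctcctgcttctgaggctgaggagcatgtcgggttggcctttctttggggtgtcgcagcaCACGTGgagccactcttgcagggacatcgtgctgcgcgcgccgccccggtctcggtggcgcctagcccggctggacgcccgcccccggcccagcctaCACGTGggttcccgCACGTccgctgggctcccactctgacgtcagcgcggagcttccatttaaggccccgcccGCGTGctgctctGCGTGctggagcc
*Slc16a1*, chr3:104638414-104638713, plus strand: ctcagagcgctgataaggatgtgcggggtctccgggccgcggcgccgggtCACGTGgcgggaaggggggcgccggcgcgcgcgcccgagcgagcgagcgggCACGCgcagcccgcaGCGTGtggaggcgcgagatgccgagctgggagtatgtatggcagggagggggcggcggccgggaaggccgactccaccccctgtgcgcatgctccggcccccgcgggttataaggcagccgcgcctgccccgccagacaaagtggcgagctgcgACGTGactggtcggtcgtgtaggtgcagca
*Slc16a3*, chr11:120948817-120949116, plus strand: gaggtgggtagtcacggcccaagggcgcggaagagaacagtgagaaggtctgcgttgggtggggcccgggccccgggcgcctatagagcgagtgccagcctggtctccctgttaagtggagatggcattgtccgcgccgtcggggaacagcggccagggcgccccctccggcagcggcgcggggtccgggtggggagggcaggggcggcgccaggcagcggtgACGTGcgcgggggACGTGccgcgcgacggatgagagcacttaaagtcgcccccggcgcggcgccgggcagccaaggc
*Pfkl*, chr10:78009758-78010057, minus strand: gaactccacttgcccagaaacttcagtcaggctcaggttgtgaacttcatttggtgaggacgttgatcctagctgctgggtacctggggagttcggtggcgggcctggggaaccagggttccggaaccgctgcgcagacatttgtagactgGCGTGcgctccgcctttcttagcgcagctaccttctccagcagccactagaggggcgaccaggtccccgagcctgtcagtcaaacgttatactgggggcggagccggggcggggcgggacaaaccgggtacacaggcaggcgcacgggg
A RefSeq window was found for 33 of the 34 genes, all except *Slc2a3*. ACGTG was present on either strand in 15 of the 33, or 45.5%, against 26.1% of 9815 protein-coding genes that had both a window and a promoter peak. In all, 12557 genes had a promoter peak in at least 1 library, and those without a window were not searched. GCGTG was present in 60.6% against 52.3%, and ACGTG or GCGTG in 27 promoters, or 81.8%, against 64.0%. The E-box CACGTG, which holds ACGTG and is bound by MYC, was found in 3 promoters, or 9.09%, against 10.4%. GGGCGG, the letters of the GC box, were found in 75.8% against 66.1%, CCAAT in 42.4% against 37.7% and TATAAA in 9.09% against 6.47%. The median GC content was 61% in the set and 61.3% in all 9815 windows, which include those of the set, with a median of 21 CpG in both. Such a match describes the letters alone. *Tpi1*, which had the largest change in *GFI1-36N* mice, has no core site in this window, and *Pfkl* has 1.

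The ranks run from 0, for no promoter peak, to 100, for the peak with the highest fold enrichment of its list, the ratio of fragments at the summit to the background. A promoter peak was found in every library for 28 of the 34 genes, in some libraries for 5 and in none for 1. The *GFI1-36S* vehicle and curcumin libraries had peaks at 33 and 28 of the genes, the *GFI1-36N* libraries at 32 and 33, and the *GFI1-KD* libraries at 32 and 31. The highest median ranks over the 6 libraries were those of *Pgam1* (88.4), *Aldoa* (82.6), *Eno3* (78.3), *Ldha* (76.9) and *Eno1* (75.2). Their ranges over libraries overlapped, from 40.1 to 92.5 for *Pgam1* and from 66.8 to 95.1 for *Ldha*, so that the order among them is not resolved. The lowest were those of *Aldoc* (0.392), *Pklr* (0.888), *Eno2* (1.51) and *Ldhb* (6.91), beside *Pfkl* with 0. The ranks of *Eno3* belong to a peak shared with the neighbouring *Pfn1*, and the summit of this peak lay outside the 1 kb window of *Eno3* in all 6 libraries.

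**Figure D1:**
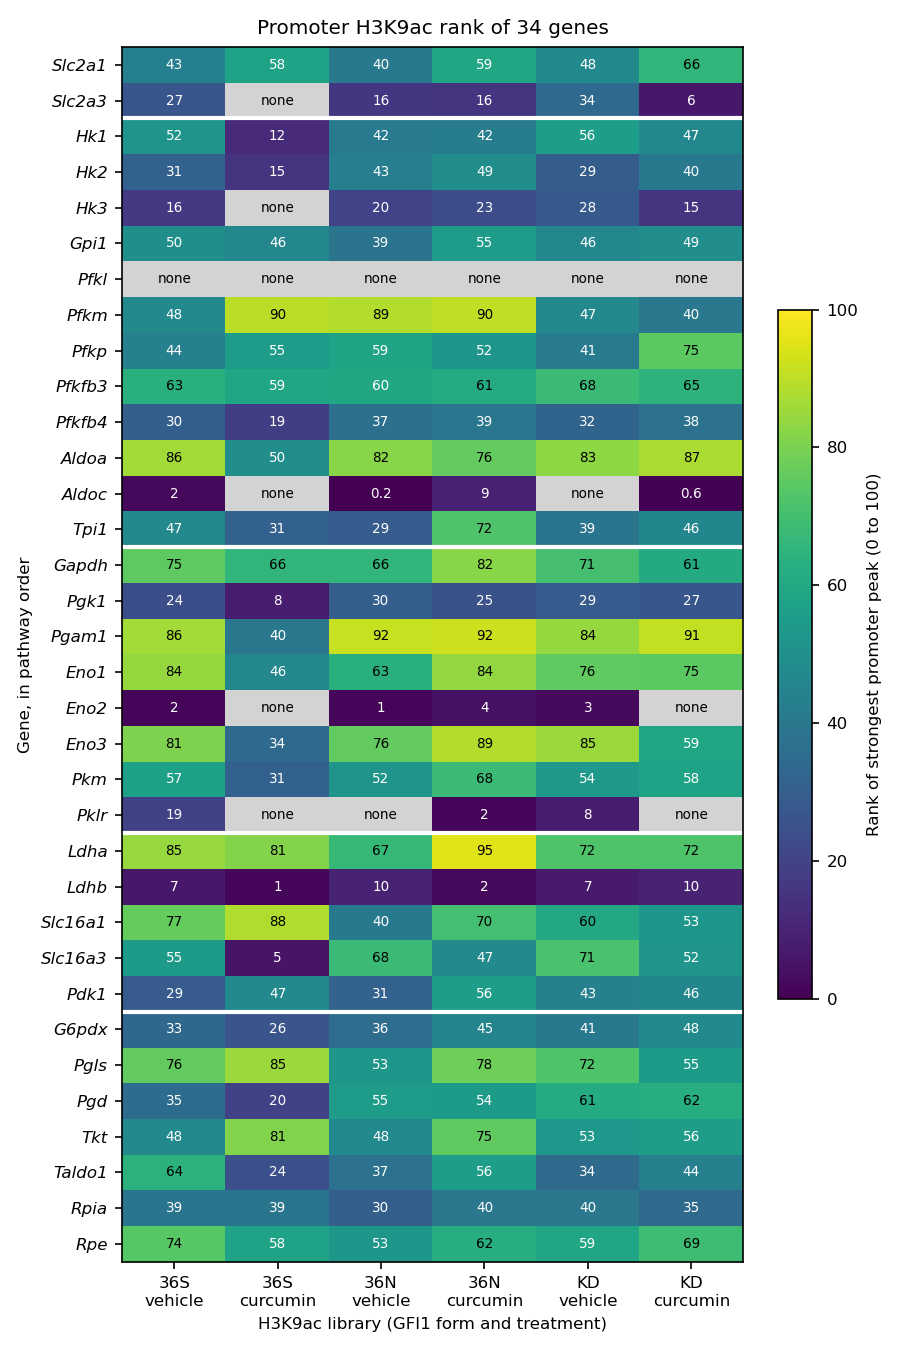
Rank of the strongest promoter peak (0 to 100, colour and number) of each of the 34 genes in pathway order (rows) in the 6 H3K9ac libraries (columns, GFI1 form and treatment), with grey for no promoter peak and white lines between transport, upper glycolysis, lower glycolysis, pyruvate and lactate, and pentose phosphate genes. *Pfkl* has no peak in any library, and *Aldoc*, *Eno2*, *Pklr* and *Ldhb* stay under 20 throughout.

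Isozymes had separate ranks at 4 pairs, chosen after their values were seen. *Aldoa*, the aldolase of blood and muscle, ranked between 49.6 and 87.3, and *Aldoc*, that of the brain, between 0 and 9.17. *Eno1*, the widely expressed enolase, ranked between 46.2 and 84.1 and the neuronal *Eno2* between 0 and 4.35. *Pkm*, the pyruvate kinase of most tissues, ranked between 30.9 and 67.99, and *Pklr*, that of liver and red cells, between 0 and 19.4. *Ldha* ranked between 66.8 and 95.1 and *Ldhb*, the other lactate dehydrogenase subunit, between 1.5 and 9.99. In each of these 4 pairs the ranges over the 6 libraries did not overlap. Other isozymes overlapped, such as *Hk1* (12.4 to 55.6) and *Hk2* (15.3 to 49.3), or *Eno1* and *Eno3* (34.2 to 88.6). The *Eno3* ranks are those of the peak shared with *Pfn1*.

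The phosphofructokinases, which catalyse the committed step of glycolysis, were unlike each other. *Pfkl*, the liver-type gene, spans chr10:77986947-78010083 of mm10 and had no promoter peak in any library. Its nearest peak was 2105 to 59477 bp from the TSS. *Pfkm*, the muscle-type gene on chromosome 15 from 98092589 to 98132451, ranked 47.9 and 89.6 with vehicle and curcumin in *GFI1-36S* mice. The *GFI1-36N* ranks were 88.6 and 90.4, and the *GFI1-KD* ranks 46.9 and 39.9. The low ranks came with a raised background, as did the rank of 89.6 in the *GFI1-36S* curcumin library. MACS2 divides by the larger of the genome background and the local background, and at the *Pfkm* summit the local one was 1.72, 1.73, 1.75 and 1.71 times the genome background in the vehicle and curcumin libraries of *GFI1-36S* and then of *GFI1-KD*, whereas in both *GFI1-36N* libraries the genome background was the larger or equal. Ranked by summit height over the genome background, *Pfkm* stood at 85.8 and 99.0, at 88.4 and 90.3, and at 83.6 and 73.7 in the 3 genotypes. Its peak was shared with *Senp1*, which runs in the opposite direction. *Pfkp*, the platelet-type gene, ranked 40.7 with vehicle and 74.7 with curcumin in *GFI1-KD* mice, 43.5 and 55.5 in *GFI1-36S* and 58.5 and 52.4 in *GFI1-36N* mice. By height its *GFI1-KD* ranks were 45.4 and 71.8.

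**Figure D2:**
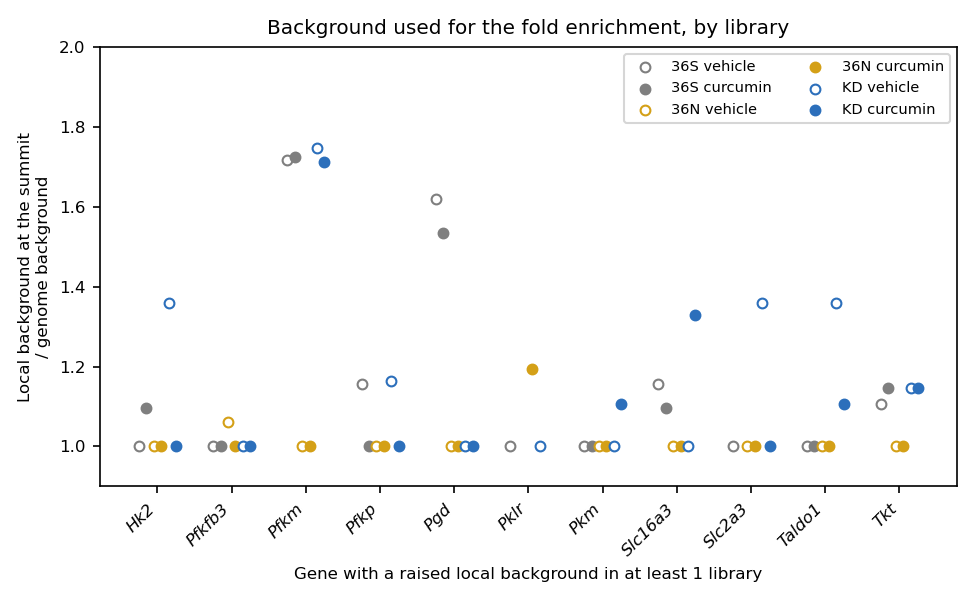
Local background at the summit divided by the genome background of the library (vertical axis, no unit, starting at 0.9) for the 11 genes of the set with a raised local background in at least 1 library (horizontal axis), with 1 point per library, open for vehicle and filled for curcumin. *Pfkm* is raised in the 4 *GFI1-36S* and *GFI1-KD* libraries and at 1 in both *GFI1-36N* libraries, and *Slc16a3* is at 1.33 in the *GFI1-KD* curcumin library.

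In *GFI1-36N* mice the set ranked higher with curcumin. The median change, curcumin minus vehicle, was 8.99 points over the 33 genes with a peak in the pair, and 26 of them were higher and 7 lower. The median of all 12022 protein-coding genes with a peak in this pair was 1.89. A change of at least 10 points was taken as the size to report. By this rule 13 of the 33 genes, or 39.4%, ranked higher, against 19.3% of all genes, and 1, *Slc16a3*, ranked lower, or 3.03% against 11.3%. Because ranks near 0 or 100 have less room to move, the count was repeated for genes whose mean rank in the pair lay between 25 and 75. Of 22 such genes in the set, 11 were higher and 1 lower, against 26.2% and 17.1% of all such genes, with medians of 12.9 and 2.20. At 20 points, 7 genes were higher, against 4.82% of all genes, and 1 lower, against 3.01%. In bulk chromatin, a mark carried by more cells and a mark raised in each cell cannot be told apart. In this pair the summed ranks of the neutrophil markers were 138 with vehicle and 186 with curcumin, those of the erythroid markers 107 and 158, and those of the monocyte markers 364 and 253. Their part in the change of the set was not tested.

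The 13 genes came from each of the 5 groups of steps, but no hexokinase, phosphofructokinase or aldolase gene was among them. *Slc2a1* (GLUT1, the main glucose transporter of blood cells) and, in the upper steps, *Gpi1* and *Tpi1* were among them. In the lower steps they were *Gapdh*, *Eno1*, *Eno3* and *Pkm*, and *Ldha*, *Slc16a1* and *Pdk1* followed for pyruvate and lactate. The pentose phosphate genes were *Pgls*, *Tkt* and *Taldo1*. The median change was largest for the 5 pyruvate and lactate genes, at 24.5, and was 9.38 for the 7 pentose phosphate genes, 7.86 for the 8 lower and 2.38 for the 11 upper glycolytic genes with a peak. The hexokinases, which trap glucose in the cell, moved by 0.385 (*Hk1*), 6.51 (*Hk2*) and 3.23 (*Hk3*), all under 10.

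*Tpi1*, which interconverts the 2 triose phosphates, had the largest change, from rank 28.9 to 72.4. It lies on chromosome 6 of mm10 from 124810586 to 124814296. Its fold enrichment was 12.1 with vehicle (95% counting interval 9.62 to 15.0, from 83 fragments) and 27.2 with curcumin (23.1 to 31.8, from 156 fragments). These intervals, which cover counting error only, do not overlap. In *GFI1-36S* mice *Tpi1* ranked 47.0 and 30.9, and in *GFI1-KD* mice 39.0 and 46.0, so that its vehicle rank was lowest in *GFI1-36N* mice.

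The promoters of genes for lactate production and export changed rank in both directions. *Ldha*, which reduces pyruvate to lactate, stood at 66.8 and 95.1 in *GFI1-36N*, at 84.6 and 81.3 in *GFI1-36S* and at 72.3 and 72.4 in *GFI1-KD* mice. *Slc16a1*, which encodes the transporter MCT1, ranked 40.4 and 70.3 in *GFI1-36N*, 76.5 and 88.0 in *GFI1-36S* and 60.3 and 52.6 in *GFI1-KD* mice. *Pdk1*, a kinase that blocks the entry of pyruvate into the mitochondrial cycle, ranked 31.3 and 55.9, 28.9 and 47.3, and 43.5 and 46.0 in the same order. All 3 were thus more than 20 points higher with curcumin in *GFI1-36N* mice and moved by less than 10 in *GFI1-KD* mice. *Slc16a3*, which encodes MCT4, the exporter of lactate from strongly glycolytic cells, was the exception. It ranked 68.1 and 47.4 in *GFI1-36N*, 54.5 and 5.38 in *GFI1-36S* and 71.4 and 52.3 in *GFI1-KD* mice. *Ldhb* moved from 9.96 to 2.12 in *GFI1-36N* mice, with 37 and 18 fragments.

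**Figure D3:**
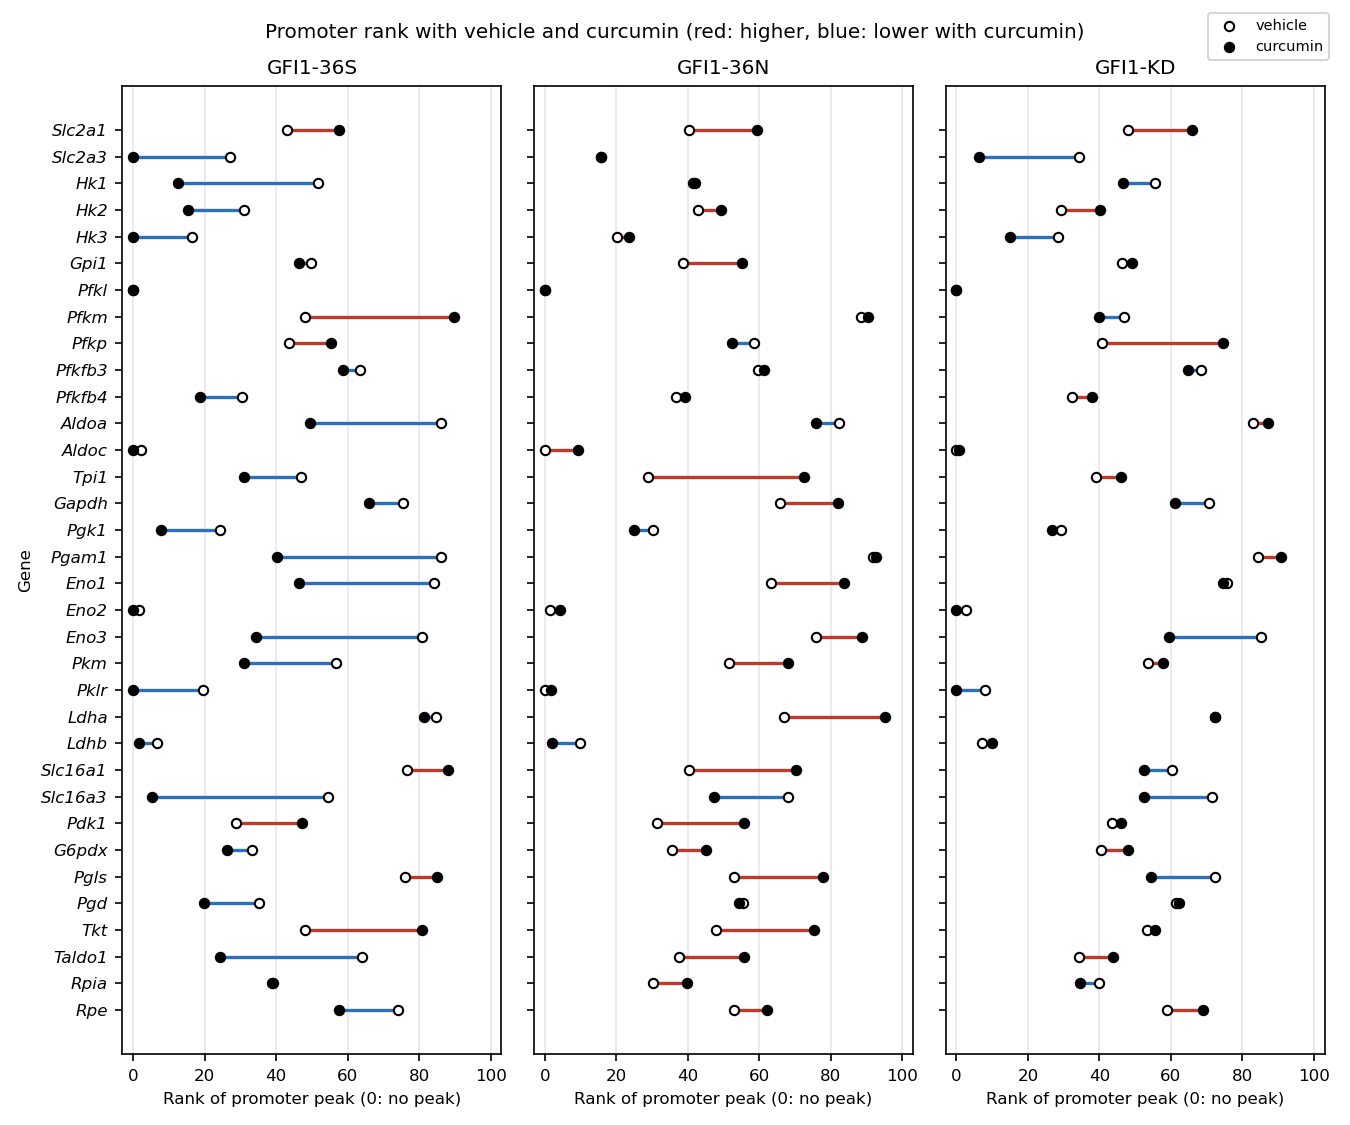
Rank of the strongest promoter peak (horizontal axis, 0 to 100, 0 for no peak) of the 34 genes (vertical axis) with vehicle (open) and curcumin (filled) in the 3 genotypes, 1 library per point, with red lines for genes higher and blue for genes lower with curcumin. With the treatments as labelled, *Slc2a1* lies to the right with curcumin in all 3 panels and *Slc16a3* to the left (not in *GFI1-KD* mice by height over the genome background), and 26 genes have higher ranks with curcumin in *GFI1-36N* mice.

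The pentose phosphate genes with the largest changes in *GFI1-36N* mice were *Tkt* and *Pgls*. *Tkt*, a transketolase of the non-oxidative branch, ranked 47.8 and 75.4 with vehicle and curcumin in *GFI1-36N*, 48.0 and 80.9 in *GFI1-36S* and 53.3 and 55.6 in *GFI1-KD* mice. *Pgls*, the lactonase of the oxidative branch, ranked 52.9 and 77.8, 76.0 and 85.0, and 72.3 and 54.6 in the same order. *Taldo1*, the transaldolase, ranked 37.4 and 55.9, 64.1 and 24.3, and 34.4 and 43.7. Its local background in *GFI1-KD* mice was 1.36 times the genome background with vehicle and 1.11 times with curcumin. By height its *GFI1-KD* ranks were 45.9 and 46.4. The curcumin ranks of *Tkt* and *Pgls* were higher than the vehicle ranks in both *GFI1-36N* and *GFI1-36S* mice, whereas *Taldo1* was lower with curcumin in *GFI1-36S* mice. *G6pdx*, the rate-limiting dehydrogenase, *Rpia* and *Rpe* were higher by 9.31 to 9.38 points in *GFI1-36N* mice, just under the size reported, and *Pgd* ranked 55.4 and 54.4.

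In *GFI1-KD* mice the set did not move as a whole. The median change was 0.608 over 33 genes, with 18 higher and 15 lower, against −2.34 for all 11908 genes of the pair. At least 10 points higher with curcumin were 3 genes, or 9.09% against 9.47% of all genes, and at least 10 lower were 5, or 15.2% against 20.6%. Among genes of mean rank between 25 and 75, 3 of 24 were higher and 3 lower, against 14.6% and 27.2%. At 20 points the counts were 1 and 2, against 2.32% and 5.61%. The neutrophil and erythroid markers had summed ranks of 352 and 311 with vehicle and of 98.4 and 80.7 with curcumin in this pair, and those of the monocyte markers were 227 and 363. Their part in the changes of single genes was not tested. The 3 higher genes were *Slc2a1*, *Hk2* and *Pfkp*, and the 5 lower genes were *Slc2a3*, *Hk3*, *Eno3*, *Slc16a3* and *Pgls*.

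Among the 8 genes, 4 act at the entry and first phosphorylation of glucose. *Slc2a1* ranked 47.9 with vehicle and 65.8 with curcumin, and *Slc2a3*, which encodes GLUT3, ranked 34.3 and 6.32. *Hk2*, the inducible hexokinase, ranked 29.4 and 40.2, and *Hk3*, the hexokinase of myeloid cells, 28.4 and 14.9. In both pairs of isozymes the ranks moved in opposite directions. *Slc2a3* had 154 fragments at its summit with vehicle and 29 with curcumin. Its change is from the peaks at the single TSS of the basic annotation. With the TSSs of the comprehensive annotation it changed by −6.82 in *GFI1-KD* mice and by 28.2 in *GFI1-36N* mice, against −28.0 and −0.132 with the basic one. At *Hk2* and *Slc2a3* the local background of the *GFI1-KD* vehicle library was 1.36 times the genome background. By height, *Hk2* changed by only 2.80 points.

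*Slc2a1* was the only gene of the set that ranked at least 10 points higher with curcumin in all 3 genotypes with the treatments as labelled, and the rank in *GFI1-36S* mice is lower with curcumin if they are exchanged. It lies on chromosome 4 from 119108711 to 119137983. Its ranks with vehicle and curcumin were 47.9 and 65.8 in *GFI1-KD* mice, 43.1 and 57.6 in *GFI1-36S* and 40.4 and 59.2 in *GFI1-36N* mice, so that the 3 curcumin values lay above the 3 vehicle values. The shares of all genes with these patterns over the 3 genotypes are not given here. The fold enrichment of *Slc2a1* was 21.1 and 23.4, 18.3 and 13.7, and 15.2 and 23.5 in the same order. In *GFI1-36S* mice the fold enrichment was thus lower with curcumin while the rank was higher. The median fold enrichment of all promoter peaks was 20.03 and 12.5 in this pair. For *Slc2a1*, the ratio of curcumin to vehicle was also divided by the median ratio of all genes. With counting intervals, it was 1.28 (1.01 to 1.62) in *GFI1-KD*, 1.26 (0.928 to 1.71) in *GFI1-36S* and 1.28 (0.981 to 1.66) in *GFI1-36N* mice. The intervals for *GFI1-36S* and *GFI1-36N* mice include no change. The rises in these genotypes are thus within counting error by this measure.

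*Slc16a3*, on chromosome 11 from 120948480 to 120960868, was the only gene that ranked at least 10 points lower in all 3 genotypes with the treatments as labelled, but its *GFI1-36S* change turns upward if they are exchanged and its *GFI1-KD* change does so by height over the genome background. The share of all genes at least 10 points lower in all 3 genotypes is not given here. In *GFI1-KD* mice the local background of *Slc16a3* with curcumin was 1.33 times the genome background, and by height over the genome background its ranks were 68.8 and 69.1, a change of 0.348. By −log10 p the *GFI1-KD* change was −6.62. In *GFI1-36N* mice, where the background was not raised, the height ranks were 67.7 and 47.0. The width of its peak with vehicle and curcumin went from 2716 to 2087 bp for *GFI1-36N*, from 4682 to 1876 bp for *GFI1-KD* and from 3005 to 876 bp for *GFI1-36S*. The median width over all genes went from 1725 to 1769, from 1963 to 1541 and from 1795 to 1064 bp in the same order.

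Fold enrichment was also compared directly. The ratio of curcumin to vehicle was divided by the median ratio of all genes with a peak in both libraries, which was 1.21 for *GFI1-36N*, 0.865 for *GFI1-KD* and 0.593 for *GFI1-36S*, and was given a 95% counting interval. In *GFI1-36N* mice this interval lay above 1 for 6 of 32 genes of the set and below 1 for 2, where 7.31% and 7.33% of all genes did. The 6 were *Tpi1* (centred ratio 1.86, interval 1.42 to 2.46), *Pdk1* (1.46), *Slc16a1* (1.44), *Ldha* (1.42), *Tkt* (1.37) and *Pgls* (1.31), and the 2 were *Ldhb* (0.497) and *Slc16a3* (0.777, interval 0.605 to 0.996). The interval included 1 for the other genes that ranked at least 10 points higher in *GFI1-36N* mice. These were *Slc2a1*, *Gpi1*, *Gapdh*, *Eno1*, *Eno3*, *Pkm* and *Taldo1*, whose changes are thus within counting error by this measure. The interval lay above 1 for 3 of 30 genes in *GFI1-KD* mice, *Pfkp* (1.6), *Hk2* (1.34) and *Slc2a1* (1.28), and below 1 for 4, *Slc2a3* (0.353), *Hk3* (0.687), *Eno3* (0.743) and *Slc16a3* (0.806), where 8.58% and 8.74% of all genes did. In these mice the local background was 1.36 times the genome background at *Hk2* with vehicle and 1.33 times at *Slc16a3* with curcumin. Their heights over the genome background with vehicle and curcumin were 18.7 and 16.7 at *Hk2* and 28.4 and 25.2 at *Slc16a3*. By height, *Hk2* ranked 38.5 and 41.3 and *Slc16a3* 68.8 and 69.1, so that both ratios depend on the raised background. A centred ratio of 1.5 or more was found for 2 genes of the set and its inverse or less for 1 in *GFI1-36N* mice, against 3.73% and 3.6% of all genes. In *GFI1-KD* mice 2 were above and 1 below, against 3.66% and 4.32%, and in *GFI1-36S* mice 2 and 5, against 9.56% and 9.93%. For *Pfkp* in *GFI1-KD* mice, the fragments at the summit were 154 with vehicle and 155 with curcumin. Its local background with vehicle was 1.17 times the genome background, and its heights over the genome background were 21.2 and 25.8. The other gene above 1.5 in *GFI1-KD* mice was *Ldhb* (1.52, interval 0.926 to 2.49), with 34 and 37 fragments.

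**Figure D4:**
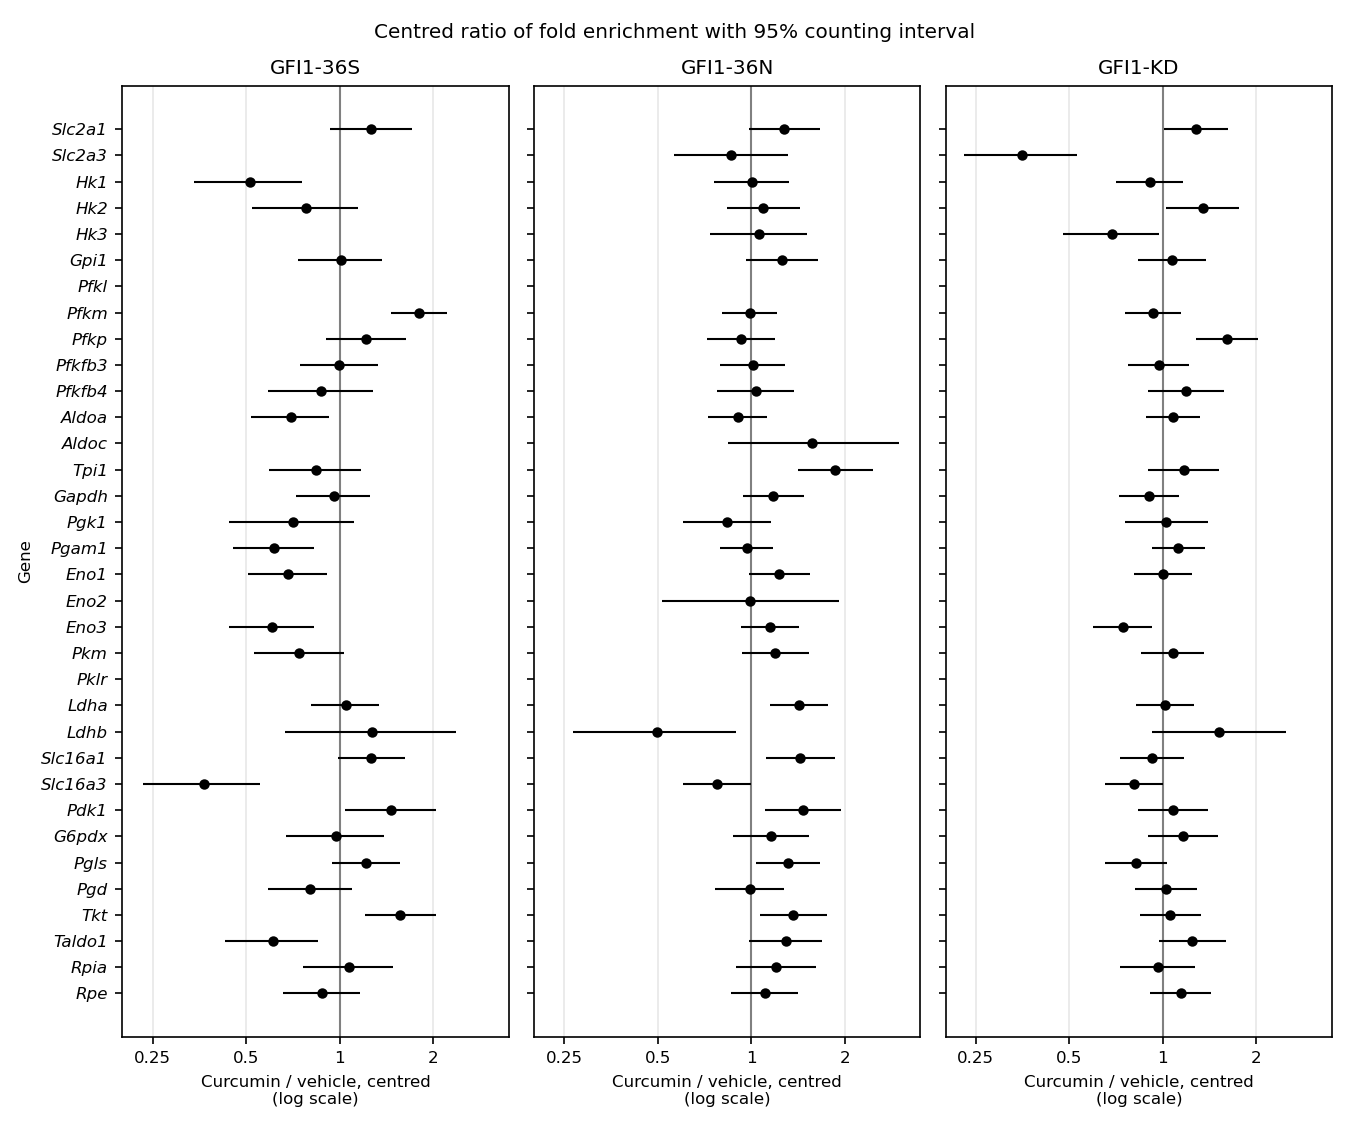
Ratio of fold enrichment with curcumin to that with vehicle, divided by the median ratio of all genes (horizontal axis, log scale), for each gene with a peak in both libraries (vertical axis) in the 3 genotypes, with lines for the 95% counting interval. The intervals lie above 1 for 6 genes in *GFI1-36N* mice, led by *Tpi1* at 1.86, and below 1 for 7 genes in *GFI1-36S* mice.

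In *GFI1-36S* mice the library labelled curcumin had the lower ranks. The median change was −11.8 over 33 genes, with 25 lower and 8 higher, against −6.61 for all 11608 genes. At least 10 points lower were 17 genes, or 51.5% against 41.4% of all genes, and at least 10 higher were 6, or 18.2% against 15.0%. Among genes of mean rank between 25 and 75, 11 of 21 were lower and 5 higher, against 46.3% and 21.2%. At 20 points, 9 were lower and 2 higher, against 20.6% and 7.0%. This is the pair whose library labelled curcumin had peaks at all T-cell markers and at no neutrophil marker, and the part of that difference in the changes of the set was not tested. *Pgk1* and *G6pdx* lie on chromosome X, and they changed by −16.4 and −6.99 points, beside the median of −11.8 of the set. The lower ranks were in the library with peaks on chromosome Y, and a part of this in the changes was not tested. The changes of other genes on chromosome X are not given here. The strongest *Pgk1* peak was not the same one, with its summit at −348 bp from the TSS with vehicle and at 386 bp with curcumin. With the treatments exchanged, the median change of the set was 11.8.

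The 8 lower glycolytic genes were all lower in the library labelled curcumin, with a median change of −22.7, in a pair in which 30.9% of all genes were higher and 2 of the 11 upper glycolytic genes with a peak were. *Eno3* is among the 8, and its summit lies near *Pfn1*. *Pgam1*, the phosphoglycerate mutase, ranked 86.1 and 40.1, *Eno1* 84.1 and 46.2, *Eno3* 80.7 and 34.2, and *Pkm* 56.8 and 30.9. Peaks were missing from the library labelled curcumin at *Slc2a3*, *Hk3*, *Aldoc*, *Eno2* and *Pklr*, which had ranked between 1.71 and 26.9 with vehicle. The share with a promoter peak was 97.1% with vehicle and 82.4% with curcumin in the set, against 51.9% and 44.3% of all protein-coding genes. The 6 higher genes were *Slc2a1*, *Pfkm*, *Pfkp*, *Slc16a1*, *Pdk1* and *Tkt*. The centred ratio had an interval above 1 for 3 of 28 genes, *Pfkm* (1.8), *Tkt* (1.57) and *Pdk1* (1.46), where 16.1% of all genes did. It was below 1 for 7, where 13.7% of all genes were, and these were *Slc16a3* (0.366), *Hk1* (0.513), *Eno3* (0.606), *Taldo1* (0.608), *Pgam1* (0.616), *Eno1* (0.684) and *Aldoa* (0.695).

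**Figure D5:**
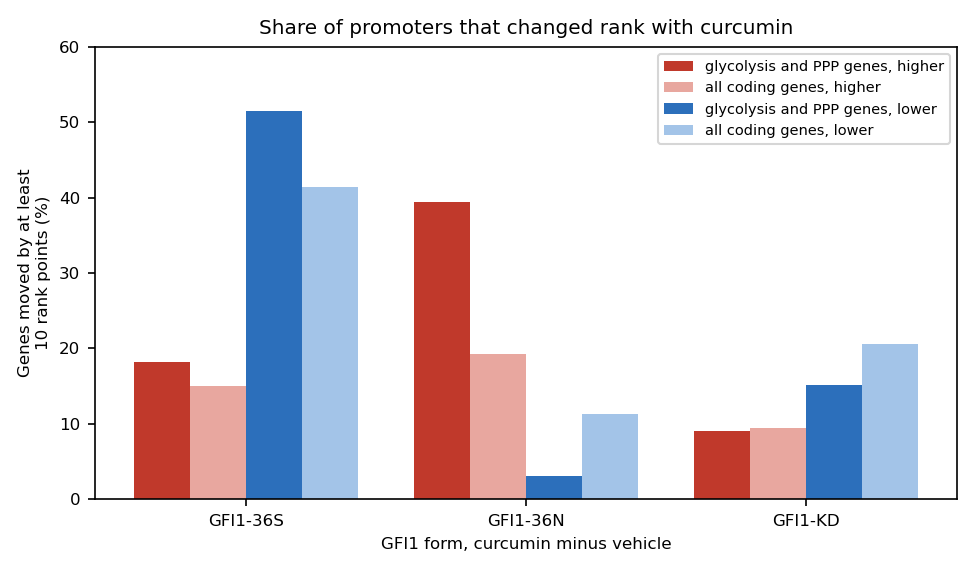
Share of genes (vertical axis, percent) whose promoter rank was at least 10 points higher (red) or lower (blue) with curcumin in each genotype (horizontal axis), dark for the 33 glycolysis and pentose phosphate (PPP) genes with a peak in the pair and light for all protein-coding genes with a peak in the pair. In *GFI1-36N* mice 39.4% of the set was higher against 19.3% of all genes, and in *GFI1-KD* mice the shares were 9.09% and 9.47%.

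Between genotypes, the median differences of the set ran from −3.73 to 5.51 with vehicle and from −6.02 to 15.6 with curcumin, with the *GFI1-36S* treatments as labelled. With vehicle, the median of the differences in rank, taken gene by gene, was −3.73 for *GFI1-36N* minus *GFI1-36S* (all genes −0.670). Of the 33 genes, 11 were at least 10 points lower and 5 higher, against 17.5% and 15.3% of all genes. *GFI1-KD* minus *GFI1-36S* gave a median of −1.01, with 4 genes higher and 5 lower, against 16.4% and 9.97%, and *GFI1-KD* minus *GFI1-36N* gave 5.51, with 7 higher and 3 lower, against 18.6% and 10.7%. With curcumin, the set was a median of 15.6 points higher in *GFI1-36N* than in *GFI1-36S* mice (all genes 7.57), with 18 of 33 genes higher and 1 lower, against 43.1% and 10.8%. *GFI1-KD* minus *GFI1-36S* gave 14.9 over 31 genes, with 17 higher and 4 lower, against 38.1% and 18.7%, and *GFI1-KD* minus *GFI1-36N* gave −6.02, with 2 higher and 10 lower, against 12.8% and 23.6%. The *GFI1-36S* library in the curcumin comparisons is the one with peaks at all T-cell markers and at no neutrophil marker, and the part of this in the differences was not tested. With the *GFI1-36S* treatments exchanged, the vehicle medians turn to 5.76 for *GFI1-36N* minus *GFI1-36S* and to 8.81 for *GFI1-KD* minus *GFI1-36S*, and the curcumin medians become 6.42 and −1.55. The 3 comparisons of each treatment share libraries.

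The change with curcumin was then set side by side between *GFI1-36N* and *GFI1-KD* mice, which share no library. The difference in change had a median of 9.15 points in the set and 3.95 over all 12557 genes, and it was at least 10 points for 14 of 33 genes and at most −10 for 3, against 31.7% and 13.1% of all genes. It was largest for *Pgls* (42.6), *Eno3* (38.4), *Slc16a1* (37.6) and *Tpi1* (36.5), and lowest for *Pfkp* (−40.1). Of the 13 genes higher in *GFI1-36N* mice, *Slc2a1* was also at least 10 points higher in *GFI1-KD* mice, 10 moved by less than 10 points, and *Eno3* and *Pgls* were at least 10 points lower, where 9.47% of all genes were higher and 20.6% lower in *GFI1-KD* mice. No test of this difference is possible with 1 library per group.

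The peaks themselves were wider than usual. The median width of the strongest promoter peak was 2729 bp in the set and 1769 bp over all genes in the *GFI1-36N* curcumin library, and it was larger in the set in each of the 6 libraries, with the smallest gap, 1211 against 1064 bp, in the *GFI1-36S* library labelled curcumin. The summit lay a median of 203 to 262 bp downstream of the nearest TSS. At *Eno3*, on chromosome 11 from 70657202 to 70662513, the summit lay between −2891 and −1943 bp, upstream of the TSS, in the 6 libraries, and the peak also reached the promoter of the neighbouring *Pfn1*. In the *GFI1-KD* vehicle library the peak was 9432 bp wide and reached the promoters of *Rnf167* and *Slc25a11* as well. The rank of *Eno3* is therefore that of a peak shared with its neighbours, and with the summit required inside the window *Eno3* had no change to compare. With a 3 kb window its change in *GFI1-36S* mice was −4.87. The *G6pdx* peak was shared with *Ikbkg*, which runs in the opposite direction.

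A further list of 62 genes of the same and adjoining pathways, among them the pyruvate dehydrogenase complex, fructose bisphosphatases, other transporters and regulators, was measured in the same way, and 49 of them had a promoter peak in at least 1 library. In *GFI1-36N* mice their median change was 2.35, with 10 of 48 at least 10 points higher and 7 lower, near the shares of all genes given above. The highest was *Egln3*, a prolyl hydroxylase that marks HIF for destruction, with ranks 21.8 and 57.8, and *Pfkfb1* gained a peak of rank 29.7. *Dld*, a subunit of the pyruvate dehydrogenase complex, ranked 83.3 and 63.2 and *Slc16a7*, another monocarboxylate transporter gene, 56.6 and 39.2. In *GFI1-KD* mice 3 of 47 were higher and 11 lower, near the 9.47% and 20.6% of all genes, with a median of −2.14 against −2.34. The highest were *Egln1*, another HIF hydroxylase, with ranks 42.7 and 55.9, and *Pdhx*, with 42.5 and 54.9, and *Pfkfb1* and *Slc2a4*, the insulin-responsive glucose transporter gene, lost peaks of rank 24.9 and 19.5. In the *GFI1-36S* pair 5 of 45 were higher and 30 lower, against 15.0% and 41.4% of all genes, with a median of −14.5 against −6.61. There *Pdhb* ranked 61.5 and 90.1 and *Pgam5* 52.9 and 80.6, whereas *Txnip*, an inhibitor of glucose uptake, ranked 86.1 and 41.3 and *Slc16a7* lost a peak of rank 44.99.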

How the data were processed

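H3K9ac ChIP-seq peak lists of 6 libraries of mouse BM cells were used, 1 per group. The authors trimmed reads with Trim Galore, mapped them to mm10 with BWA-MEM, called peaks per library with MACS2 and removed black list regions. The input of *GFI1-36S* and the IgG of *GFI1-36N* were not used here. The control, threshold and duplicate handling of each list are not given in the sources used here. Fold enrichment, as deposited, divides the summit fragments by the larger of the local and genome background, a ratio. The −log10 p, −log10 q and integer score of each peak were also written by the authors' caller. None of these values is normalized between libraries.

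Promoters were 1 kb on each side of any TSS of protein-coding genes in the basic GENCODE M21 annotation, outside the mitochondrial genome, with at least 1 bp of overlap. The strongest peak by fold enrichment was ranked from 0 to 100, ties sharing their mean rank. Summit fragments were recovered from fold enrichment and p for 95.1% to 100% of promoter peaks, to within 0.02 of a whole number, and have exact Poisson intervals. Ratios have conditional binomial intervals. Intervals cover counting error only. A change of at least 10 points was reported, with no test. Computations used numpy 2.4.6, pandas 2.3.3 and scipy 1.17.1 in Python 3.11.15, with figures from matplotlib 3.10.9, and the steps were tested on simulated data. The genes of the set, the lists of other pathway genes and cell type markers and the promoters shown were chosen with earlier results of these data known. By rule all genes of the set could be named, and of the other pathway genes the 2 with the largest rise and the 2 with the largest fall per genotype. Alternatives were other peak limits, windows, TSSs, rank measures, gene universes, call sizes and exchanged *GFI1-36S* treatments. The comprehensive annotation, the height over the genome background, the counting intervals of ratios and the counts over mean ranks of 25 to 75 were added after seeing the data.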

Additional observations from a re-analysis of the deposited data

Results flagged for a closer look

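The change of the set differed in sign between genotypes. The median change in rank with curcumin was 8.99 in *GFI1-36N* and −11.8 in *GFI1-36S* mice, where it turns positive with the treatments exchanged as in the list names. The difference was not tested, since each group has 1 library. At *Eno3* the rank was 12.7 points higher with curcumin in *GFI1-36N* and 25.7 points lower in *GFI1-KD* mice (a change of −25.7), from a peak whose summit lies at the neighbouring *Pfn1*. At *Pgls* the change was 24.9 in *GFI1-36N* mice, against −17.7 in *GFI1-KD* mice. These differences were not tested either.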

How the results depend on the processing

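No paired analysis was possible because each group has 1 library, and no library could be left out of a group. Depth limits the weak peaks, such as *Aldoc*, *Eno2* and *Ldhb*, with 18 to 37 summit fragments. Over the other peak limits, windows, TSSs, rank measures, gene universes and annotation, the median change of the set stayed between 7.5 and 9.38 in *GFI1-36N*, between −13.8 and −8.62 in *GFI1-36S* and between −0.134 and 1.62 in *GFI1-KD* mice.

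With the *GFI1-36S* treatments exchanged, the *GFI1-36S* median change was 11.8, with 17 genes higher and 6 lower, against 41.4% and 15.0% of all genes. The vehicle differences were then 5.76 for *GFI1-36N* minus *GFI1-36S* and 8.81 for *GFI1-KD* minus *GFI1-36S*, the curcumin differences were 6.42 for *GFI1-36N* minus *GFI1-36S* and −1.55 for *GFI1-KD* minus *GFI1-36S*, and the differences in change against *GFI1-36S*, 19.7 for *GFI1-36N* and 11.4 for *GFI1-KD* as labelled, were −7.28 and −8.26. With a change of at least 20 points, 2 genes were higher and 9 lower in *GFI1-36S*, 7 higher and 1 lower in *GFI1-36N*, and 1 higher and 2 lower in *GFI1-KD* mice. At 1.5-fold in the centred ratio, 2 were higher and 5 lower in *GFI1-36S*, 2 higher and 1 lower in *GFI1-36N*, and 2 higher and 1 lower in *GFI1-KD* mice. With a −log10 q of at least 5, and with equal numbers of top peaks, 5 genes were higher in *GFI1-KD* mice. With the summit inside the window, 2 were lower in *GFI1-36N* mice. The shares of all genes under these settings are not given here, so that these counts have no background beside them. By height over the genome background, an alternative added after seeing the data, the *GFI1-KD* change of *Slc16a3* was 0.348, since the raised local background no longer enters. Other single-gene changes under the size reported in an alternative were *Pfkp* in *GFI1-36S*, at 6.15 by −log10 p and 2.94 by height, *Hk2* in *GFI1-KD*, at 3.62 and 2.80, and *Pfkfb4* in *GFI1-36S* mice, at −7.13 with equal numbers of top peaks. The *GFI1-36S* change of *Eno3* was −4.87 with a 3 kb window, and the *GFI1-KD* changes of *Slc2a3* and *Slc16a3* were −6.82 with the comprehensive annotation, also added after seeing the data, and −6.62 by −log10 p. Where no cause is named, the cause was not tested.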
